A study of Mus musculus with 2 samples.

Results

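Neutrophils and monocytes that came through an isolation of liver endothelial cells were described in 2 libraries of 3′ single-cell RNA-seq, 1 from control mice and 1 from Maf LSEC-KO mice. Barcodes were selected on measured UMIs, which are counts of single mRNA molecules. Each member held at least 1500 UMIs and 750 genes, at least 2 summed UMIs of Csf3r, Retnlg, Ccr2 and Clec4e, at least 1 UMI of the leukocyte gene Ptprc, and at most 1 summed UMI of the Kupffer cell genes Clec4f, Vsig4 and Cd5l. This rule took 221 of 10384 barcodes, 72 of 4961 in control and 149 of 5423 in Maf LSEC-KO. The levels of these rule genes are therefore given as a description of what was chosen.

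Maf LSEC-KO mice carried the Clec4g-iCre transgene and Maf fl/fl alleles, so that Cre was driven by the promoter of an LSEC lectin. Controls, labelled WT, were littermates without Cre and with fl/fl or fl/wt Maf alleles. Only the Maf LSEC-KO group carried the transgene, so presence of the transgene and loss of Maf cannot be told apart. In each condition the livers of 3 mice were pooled, and CD146 beads enriched endothelial cells. The study asked what loss of Maf does to LSECs, the fenestrated endothelial cells of the liver sinusoids, and the leukocytes described here are cells carried along with them. With 1 library per condition there were no replicates, no test between conditions was possible, and all intervals are exact 95% intervals of counting error.

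Neutrophils are short-lived granulocytes made in bone marrow and released into blood under the control of G-CSF, the ligand of Csf3r. Their granule proteins are transcribed while they mature, whereas mature cells transcribe few granule genes and many genes of cytokines, chemokines and sensors. Monocytes are the circulating precursors of many tissue macrophages, and they exist as Ly6c2-high classical cells that carry the chemokine receptor Ccr2 and as Ly6c2-low cells that patrol vessels. Both cell types pass through the liver sinusoids in contact with LSECs.

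The members held 564011 UMIs in control and 1538059 in Maf LSEC-KO, with medians of 4738.5 and 5471 UMIs per barcode. Across the whole libraries the median was 8573 UMIs in control and 13441 in Maf LSEC-KO. No barcode sequence of a member was shared between libraries. The targeted gene checked the labels in endothelial barcodes, where a Maf UMI was found in 99.3% of control and 19.8% of Maf LSEC-KO barcodes. Members made up 1.45% of barcodes in control (1.14 to 1.82) and 2.75% in Maf LSEC-KO (2.33 to 3.22). Kupffer barcodes were also a larger share in Maf LSEC-KO, at 7.54% against 3.14%. Among barcodes with a Ptprc UMI, members made up 18.3% in control (14.6 to 22.5) and 16.9% in Maf LSEC-KO (14.5 to 19.6). The share of members was thus higher in Maf LSEC-KO over all barcodes but not over barcodes with a Ptprc UMI. Those numbered 393 in control and 881 in Maf LSEC-KO. The part of library depth in passing a cut of 1 Ptprc UMI was not tested. The part that the CD146 selection and the number of recovered endothelial cells played in these shares was not tested.

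Members held a median of 16 summed UMIs of the 4 rule genes in each library. At the threshold, 9 control and 18 Maf LSEC-KO members had exactly 2 such UMIs, and 19 and 31 barcodes with 1 such UMI stayed just outside. With 2 Kupffer UMIs, 2 control and 18 Maf LSEC-KO barcodes were left out.

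The label held for only part of the members. After clustering all members together, 40 control and 77 Maf LSEC-KO members were neutrophil-like, with the neutrophil markers Csf3r, Retnlg, S100a8 and S100a9. Monocyte-like members numbered 9 and 20. The remaining members were dendritic cell-like (6 and 24), endothelial-like (14 and 23) and NK cell-like (3 and 5). Ccr2 had no UMI in any neutrophil-like barcode and was detected in 22 of 24 Maf LSEC-KO dendritic cell-like barcodes. The monocyte-like name was close, with 6 classical and 5 nonclassical monocyte markers among the 50 leading genes of that cluster. Class sizes are given as composition, since genes that led some clusters, such as Cd209a, differed between libraries.

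**Figure D1:**
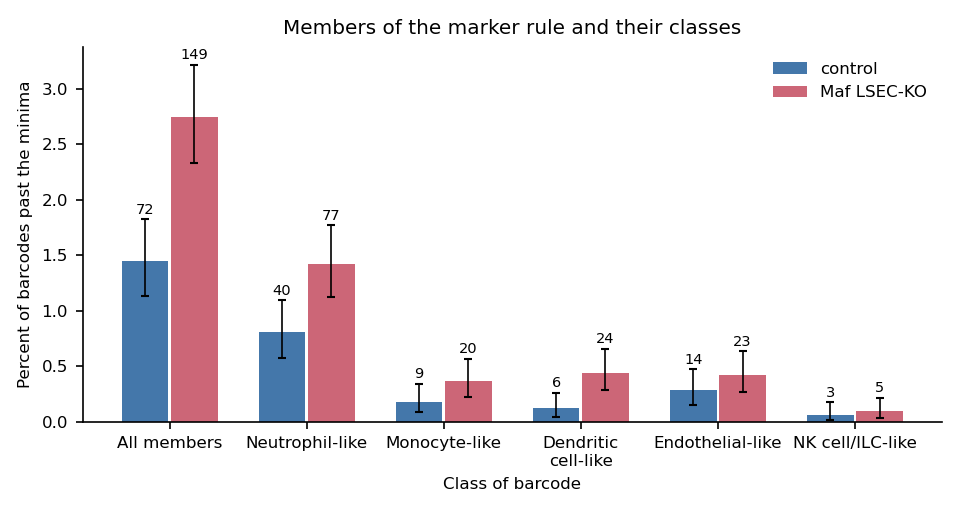
Percent of barcodes past the UMI and gene minima (vertical axis) that passed the marker rule, for all members and for each class (horizontal axis), in control and Maf LSEC-KO. Bars carry exact 95% intervals of counting error and the number of barcodes above them, and members made up 1.45% in control and 2.75% in Maf LSEC-KO.

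Endothelial-like members were the deepest class, with medians of 16721.5 UMIs in control and 23337 in Maf LSEC-KO against 3822 and 4297 in neutrophil-like barcodes. Of these endothelial-like members, 3 of 14 in control and 6 of 23 in Maf LSEC-KO held at least 20 UMIs of S100a8 and S100a9, and 6 and 9 held at least 2 UMIs of Ccr2. They thus carried endothelial RNA together with leukocyte RNA. Among the barcodes with the highest doublet scores, 4 of 5 control and 16 of 22 Maf LSEC-KO members were endothelial-like. The endothelial-like class was left out of all values for neutrophil-like and monocyte-like barcodes.

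Neutrophil-like barcodes formed the largest class and were compared in most depth. Mitochondrial genes took a median of 1.92% of their UMIs in control and 3.60% in Maf LSEC-KO, and the part of this difference in the ratios was not tested. Their summed UMIs outside mitochondrial and ribosomal protein genes were 144379 in control and 335659 in Maf LSEC-KO. Levels are given in CPM, the UMIs of a gene scaled to the summed UMIs of its class, and ratios as log2 of CPM in Maf LSEC-KO over CPM in control. Of 1552 genes with at least 100 CPM in either library, 59 (3.8%) were at least 2-fold higher and 114 (7.35%) at least 2-fold lower in Maf LSEC-KO. The median log2 ratio of all 1552 genes was -0.15. With TMM scaling, which moved ratios up by 0.20, the split turned to 100 higher and 69 lower, so counts in 1 direction depended on the scaling. Over all members together, 63 of 2133 genes (2.95%) were at least 2-fold higher and 91 (4.27%) at least 2-fold lower, and 44 and 60 of these had a higher level in endothelial barcodes than in the members.

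The rule genes and calprotectin genes came first, as a description. Csf3r, the G-CSF receptor, was at 2570 CPM in control and 2208 CPM in Maf LSEC-KO. Retnlg, a resistin-like protein of granulocytes, was at 3789 and 7657 CPM. S100a8 and S100a9, which encode the subunits of calprotectin, were at 41453 and 49910 CPM in control and at 63976 and 82280 CPM in Maf LSEC-KO. Their summed level per neutrophil-like barcode ran from 0 to 254535 CPM with a median of 52730 in control, and from 789 to 382282 CPM with a median of 109913 in Maf LSEC-KO. The ranges overlapped over most of their length. Retnlg belongs to a family of similar genes that includes Retn, and reads could be split between such copies.

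Other neutrophil identity genes were close to their control level. Cxcr2, the receptor for neutrophil chemokines, had a log2 ratio of -0.11 (-0.33 to 0.11). Mmp9, a gelatinase of tertiary granules, had a ratio of 0.04 (-0.18 to 0.27), and Hdc, which makes histamine, of 0.10 (-0.07 to 0.28). Wfdc21, a whey acidic protein family gene, was higher at 1.35 (1.03 to 1.69), with 91 UMIs in 21 control and 541 UMIs in 58 Maf LSEC-KO barcodes. Of 21 neutrophil list genes, 4 were at least 2-fold higher (Retnlg, Ly6g, Wfdc21 and Lcn2) and 0 were 2-fold lower, beside 3.8% and 7.35% of all genes, and the list's median was 0.19 against -0.15. Retnlg, Csf3r and Clec4e of this list had chosen the members and the list had named the class, so these counts are a description. Without the 10% of barcodes with most UMIs, an alternative chosen after seeing the data, each of these 4 genes was below 2-fold, at 0.80, 0.55, 0.73 and 0.82.

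Mcemp1, a membrane protein gene of myeloid cells (chr8:3665754-3669259, mm10), was higher in nearly all Maf LSEC-KO barcodes. It had 62 UMIs in 28 of 40 control barcodes and 2215 UMIs in 77 of 77 Maf LSEC-KO barcodes. Its level was 429 CPM against 6599 CPM, a log2 ratio of 3.94 (3.58 to 4.33). Per barcode it ran from 0 to 1440 CPM with a median of 341 in control, and from 413 to 20785 CPM with a median of 5659 in Maf LSEC-KO. The 2 groups of barcodes overlapped only between 413 and 1440 CPM. After thinning of each barcode to 1500 UMIs, 0 of 40 control and 60 of 77 Maf LSEC-KO barcodes kept at least 5 Mcemp1 UMIs. B and T cell barcodes, used as a background for free RNA, had a Mcemp1 UMI in 0% of barcodes in both libraries. Across 10 alternative settings the ratio of Mcemp1 stayed between 3.84 and 4.14.

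**Figure D2:**
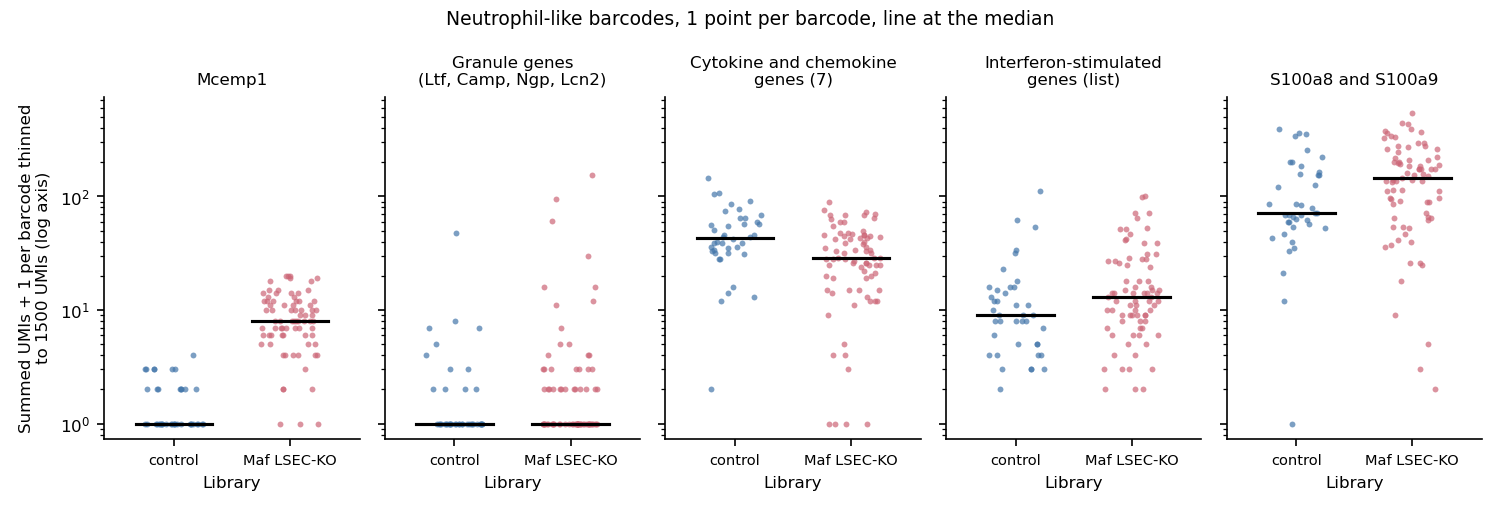
Summed UMIs plus 1 in each neutrophil-like barcode after thinning to 1500 UMIs (vertical log axis) for Mcemp1, granule genes, 7 cytokine and chemokine genes, interferon-stimulated genes and S100a8 with S100a9, with 1 point per barcode and a line at the median. Mcemp1 separated the 40 control from most of the 77 Maf LSEC-KO barcodes, whereas the granule genes were high in a few barcodes of either library.

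Mcemp1 was not alone in its neighbourhood. Clec4g, the gene whose promoter drives Cre in these mice, lies on chr8:3707064-3720651, and genes on both sides of it were higher in Maf LSEC-KO. In neutrophil-like barcodes Trappc5, a subunit of a vesicle tethering complex, had 6 UMIs in control and 174 in Maf LSEC-KO, a log2 ratio of 3.64 (2.49 to 5.11). Fcor, a corepressor of Foxo1, had 2 and 42 UMIs, a ratio of 3.18 (1.23 to 6.27). In Maf LSEC-KO endothelial barcodes Trappc5 and Fcor were at 751 and 844 CPM, above their 518 and 125 CPM in neutrophil-like barcodes. The part of endothelial RNA in these ratios was not tested. Retn, the hormone resistin, had 5 UMIs in 4 control barcodes and 88 UMIs in 38 Maf LSEC-KO barcodes, a ratio of 2.92 (1.64 to 4.58). Gm39121 and Gm16553, transcripts of no named function, had 0 UMIs in control and 22 and 14 in Maf LSEC-KO, at least 3.15-fold and 2.01-fold higher against a limit of 3 counts over the class. Over all groups of barcodes, the block of higher genes ran from Retn, which starts at 3655770, to Cd209a, which ends at 3748984. Cd209a had 0 UMIs in control and 1 in Maf LSEC-KO neutrophil-like barcodes, so that end rests on other groups.

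The flanking genes and Clec4g itself were not 2-fold different in neutrophil-like barcodes. Pet100, an assembly factor of cytochrome oxidase that starts at 3621548, had a log2 ratio of 0.65 (-0.23 to 1.62). Stxbp2, a secretion factor that starts at 3630955, had a ratio of -0.78 (-1.85 to 0.33). Clec4g RNA in these barcodes was at 111 and 110 CPM, far below its 2958 and 1391 CPM in endothelial barcodes.

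The same block was higher in the other classes of members and in cells outside the rule. In monocyte-like barcodes Mcemp1 had 26 UMIs in 4 of 9 control and 161 UMIs in 17 of 20 Maf LSEC-KO barcodes, a log2 ratio of 1.71 (1.11 to 2.37). In dendritic cell-like barcodes Mcemp1 had 2 UMIs against 474, and Fcor had 0 against 213. The class summed to 56465 UMIs in control and 253048 in Maf LSEC-KO outside mitochondrial and ribosomal protein genes. Mcemp1 was thus at 35.4 and 1873 CPM. Cd209a, a lectin of dendritic cells, had 0 UMIs in 6 control and 1007 UMIs in 16 of 24 Maf LSEC-KO dendritic cell-like barcodes, at least 74.9-fold higher. Cd209a led this cluster and is one of the markers that named it, so its value there is a description. Over all deposited barcodes Cd209a had 15 UMIs in 5 control barcodes and 2041 UMIs in 124 Maf LSEC-KO barcodes.

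Fcor and Trappc5 of this block were also higher in B and T cell barcodes and in endothelial barcodes. The B and T cell barcodes carried endothelial RNA too. At least 10 endothelial UMIs were held by 28 of 59 in control and 27 of 75 in Maf LSEC-KO. Clec4g was at 1932 and 879 CPM in them. The part of endothelial RNA in their ratios was not tested. Fcor had log2 ratios of 6.56 in B and T cell barcodes, from 3 and 377 UMIs, and 7.75 (7.52 to 7.99) in endothelial barcodes, where it went from 3.93 to 844 CPM. Trappc5 had ratios of 3.38 (2.94 to 3.86) and 3.12 (3.07 to 3.17). Fcer2a, the low-affinity IgE receptor of B cells, had a ratio of 4.58 (4.22 to 4.97) in B and T cell barcodes. The flanking gene Pet100 had ratios of 0.11 (-0.35 to 0.59) and -0.02 (-0.07 to 0.04). Fcor, Trappc5 and Mcemp1 were thus higher in each of these groups in which they had at least 10 UMIs. Outside the block, Stxbp2 was at 0.96 (0.81 to 1.12) in endothelial barcodes and Xab2, a splicing factor, at 1.40 (0.35 to 2.58) in B and T cell barcodes. The carrying of the Clec4g-iCre transgene moved with this block by design, and its part in these values was not tested.

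**Figure D3:**
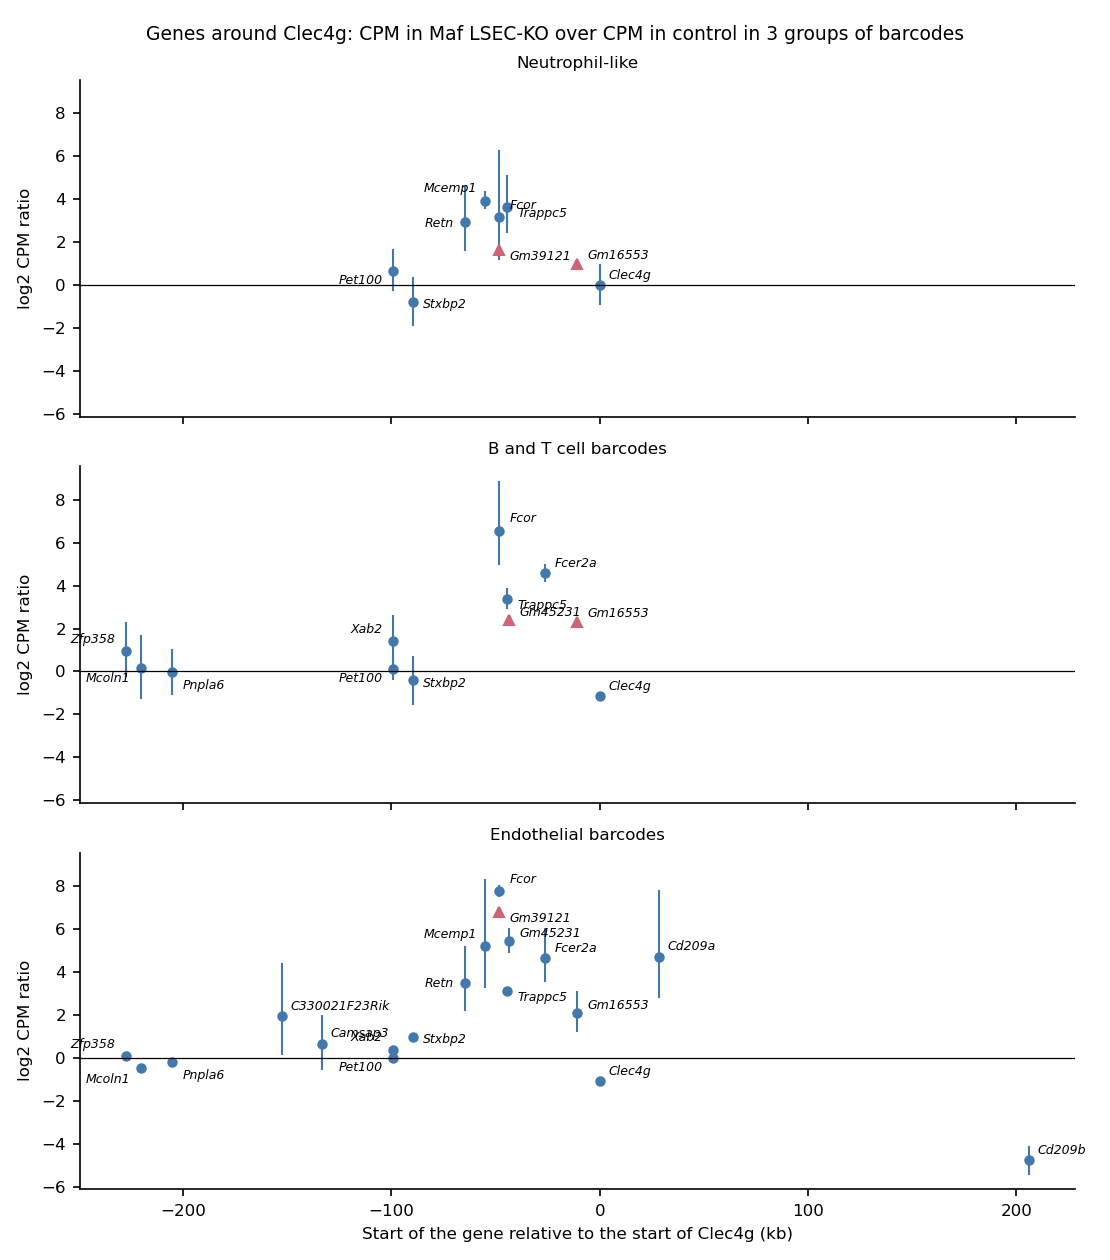
log2 of CPM in Maf LSEC-KO over CPM in control (vertical axis) for genes with at least 10 UMIs around Clec4g, by the distance of the gene's start from that of Clec4g in kb (horizontal axis), in neutrophil-like, B and T cell, and endothelial barcodes. Circles carry 95% counting intervals, triangles are lower limits for genes with 0 UMIs in control, and the genes from Retn to Cd209a lie above 0 whereas Clec4g itself does not.

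Granule genes had large ratios that rested on few barcodes. Ltf, which encodes lactoferrin, had 38 UMIs in control and 490 in Maf LSEC-KO, a log2 ratio of 2.47 (1.99 to 2.99), from 1 and 4 barcodes. Camp, the antimicrobial peptide cathelicidin, had 69 and 632 UMIs in 1 and 5 barcodes, a ratio of 1.98 (1.62 to 2.36). Ngp, a protein of secondary granules, had 113 and 1389 UMIs in 1 and 10 barcodes, a ratio of 2.40 (2.13 to 2.69). Lcn2, a siderophore-binding lipocalin, was more widely spread, with 138 UMIs in 17 control and 962 UMIs in 45 Maf LSEC-KO barcodes and a ratio of 1.58 (1.33 to 1.85). A single control barcode and 2 Maf LSEC-KO barcodes held 50% or more of the summed UMIs of these 4 genes. At 1500 UMIs, 4 of 40 control barcodes (10%, 2.79 to 23.7) and 9 of 77 Maf LSEC-KO barcodes (11.7%, 5.49 to 21.0) kept at least 5 such UMIs, so the share of granule-rich barcodes was not detectably different at this depth.

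Of 8 secondary granule genes with at least 100 CPM, 7 were at least 2-fold higher and 0 lower in Maf LSEC-KO, beside 3.8% and 7.35% of all genes. The floor had to be met in only 1 library, and Chil3 met it only in Maf LSEC-KO. Ltf, Camp and Ngp each rested on 1 control barcode, so the count describes a few barcodes and not 7 separate differences. Chil3, a chitinase-like protein, had 0 UMIs in control and 68 in 4 Maf LSEC-KO barcodes. Mmp8, the neutrophil collagenase, had a log2 ratio of 0.84 (0.50 to 1.19), and Ly6g, the surface marker used to sort mouse neutrophils, of 1.57 (0.55 to 2.76). Cybb, the membrane subunit of the NADPH oxidase, had a ratio of 1.08 (0.47 to 1.75), which became -1.01 without the 10% of barcodes with most UMIs. Without those barcodes Ltf, Camp, Ngp and Chil3 gave no ratio, since they were at or under 3 counts. Cd177, a granulocyte adhesion protein, was at 7 UMIs in 3 control and 65 UMIs in 17 Maf LSEC-KO barcodes, a ratio of 1.998 (0.874 to 3.37). Genes of primary granules, which are made earliest in maturation, had 1 UMI in control and 2 in Maf LSEC-KO over the whole list of 6 genes.

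Other genes with extreme ratios came from 1 barcode. Olfm4, a granule glycoprotein of a neutrophil subset, had 46 UMIs in 1 control barcode and 2 UMIs in 1 Maf LSEC-KO barcode. Cstdc5 and Stfa2, cystatin A-like protease inhibitors with near-identical copies, had 48 and 37 UMIs in Maf LSEC-KO, of which 97.9% and 97.3% lay in a single barcode. These values describe single cells, and the copies of the last genes cannot be separated with certainty.

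Of the cytokine and chemokine genes in neutrophil-like barcodes, 7 of 8 and 4 of 5 had a ratio below 0, mostly by less than 2-fold. The median log2 ratio of all 1552 genes was -0.15, so a ratio below 0 was common among all genes too. Il1b, the cytokine interleukin-1β, was at 18770 CPM in control and 12837 CPM in Maf LSEC-KO, a log2 ratio of -0.55 (-0.62 to -0.48). Il1rn, the antagonist of its receptor, had 99 UMIs in each library, from 31 of 40 control and 48 of 77 Maf LSEC-KO barcodes, a ratio of -1.22 (-1.63 to -0.80). Tnf was at -1.06 (-1.68 to -0.43) and Ptgs2, the inducible prostaglandin synthase, at -0.93 (-1.10 to -0.76). The neutrophil attractant Cxcl2 was at -0.53 (-0.65 to -0.41) and the macrophage inflammatory protein Ccl3 at -0.74 (-0.96 to -0.52). Ccl4 was at -1.73 (-1.97 to -1.49), with 47.4% of its control UMIs in 1 barcode, and at -1.39 without the highest barcode of each library. Osm, a cytokine of the interleukin-6 family, was at 0.02 (-0.28 to 0.32), and the chemokine Ccl6 at 0.18 (-0.05 to 0.41).

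Genes with lower ratios were then summed per barcode, as a description of their spread, since the direction of the sum follows from that choice. The summed level of Il1b, Tnf, Il1rn, Ptgs2, Cxcl2, Ccl3 and Ccl4 ran from 645 to 100197 CPM per control barcode, with quartiles of 22811, 30787 and 43382. In Maf LSEC-KO it ran from 0 to 61467 CPM, with quartiles of 13118, 21933 and 33120. The ranges overlapped widely. Of 8 inflammatory cytokine genes tested, 0 were at least 2-fold higher and 2 lower (Tnf and Il1rn), beside 3.8% and 7.35% of all genes, with a median of -0.72. With TMM scaling Tnf was at -0.86 and no longer past 2-fold. Of 5 chemokine genes, 0 were higher and 1 lower, with a median of -0.74. Both medians lay below the -0.15 of all genes. For the same genes the medians were 0.01 and 0.75 in endothelial barcodes and -0.07 and 0.46 in Kupffer barcodes. In Kupffer barcodes 2 of the cytokine and 1 of the chemokine genes were also at least 2-fold lower and 0 higher. Only 7 of the 8 cytokine genes had UMIs in both libraries in each of these groups. No share over all genes was computed in them, so these counts are a description. Across barcodes, the granule sum and the cytokine sum had a Spearman rho of -0.12 in 40 control and -0.37 in 77 Maf LSEC-KO barcodes, which share library and depth.

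**Figure D4:**
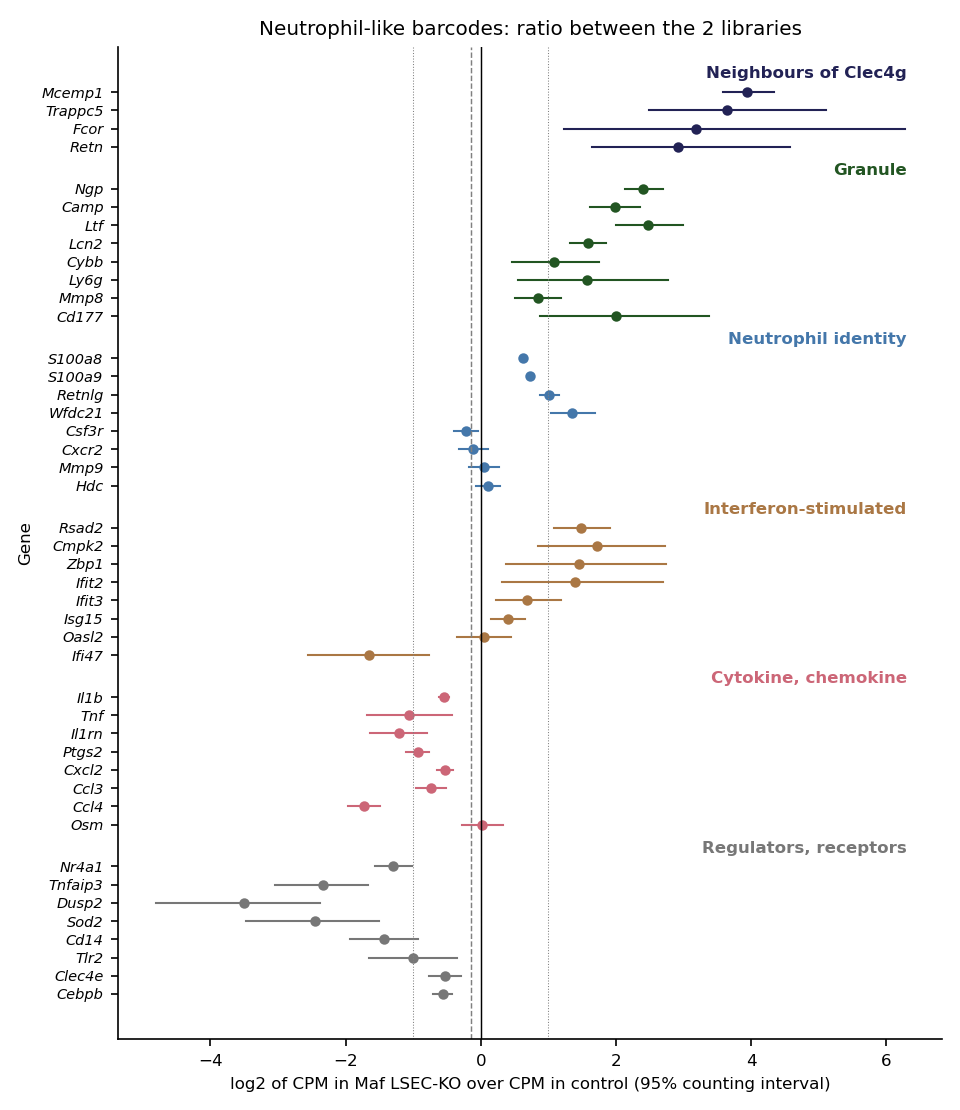
log2 of CPM in Maf LSEC-KO over CPM in control (horizontal axis) for named genes (vertical axis, by group) in neutrophil-like barcodes, with 95% counting intervals, dotted lines at 2-fold and a dashed line at the median of -0.15. The neighbours of Clec4g lie at 2.92 or above, the granule genes between 0.84 and 2.47, and the plotted cytokine and chemokine genes other than Osm below -0.5.

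Further genes with low ratios are given singly, some of them chosen after their values were seen and not as a list. Dusp2, a phosphatase of MAP kinases, had 39 UMIs in 6 control and 8 UMIs in 4 Maf LSEC-KO barcodes, a log2 ratio of -3.50 (-4.81 to -2.38), with 61.5% of its control UMIs in 1 barcode. Tnfaip3, an inhibitor of NF-κB signalling, had 61 UMIs in 24 control and 28 UMIs in 17 Maf LSEC-KO barcodes, a ratio of -2.34 (-3.04 to -1.67), and was spread over the most barcodes of these genes. Bcl2a1b, a survival factor with near-identical copies, was at -2.90 (-3.88 to -2.01). Vegfa, the vascular growth factor, had 29 UMIs in 14 control and 11 UMIs in 7 Maf LSEC-KO barcodes, a ratio of -2.62 (-3.76 to -1.57). Sod2, the mitochondrial superoxide dismutase, was at -2.45 (-3.47 to -1.51), with 57.6% of its control UMIs in 1 barcode and -1.35 without the highest barcode of each library. Icam1 was likewise at -2.41 with, and -1.24 without, the highest barcode.

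Sensors and transcription factors were mostly lower by less. Cd14, the coreceptor for lipopolysaccharide, was at -1.43 (-1.94 to -0.92) and Tlr2, a receptor for bacterial lipoproteins, at -1.01 (-1.66 to -0.35), which became -0.43 after thinning for Cd14 and -0.81 with TMM for Tlr2. Clec4e and Clec4d, lectins that sense fungal and mycobacterial lipids, were at -0.53 and -0.39, and Clec4e was one of the rule genes. Of 10 innate receptor genes tested, 1 was at least 2-fold higher (Cd36) and 3 were lower (Tlr2, Cd14 and Fcgr2b), beside 3.8% and 7.35% of all genes, and Cd36 and Fcgr2b are also genes of endothelial cells. Nr4a1, an immediate early nuclear receptor, was at -1.29 (-1.57 to -1.02), Zeb2 at -1.27 (-1.82 to -0.71), and Cebpb, a factor of inflammatory gene expression, at -0.57 (-0.70 to -0.43). Of 10 myeloid transcription factor genes, 0 were higher and 3 lower, beside the same 3.8% and 7.35%, and the third was Maf itself, at 17 UMIs in control and 5 in Maf LSEC-KO. In control, Maf was at 118 CPM in neutrophil-like and 3405 CPM in endothelial barcodes, so it is not read here as a gene of neutrophils. Spi1, the master regulator of the myeloid lineage, was at -0.09 (-0.40 to 0.23).

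Receptors for migration and growth factors held no gene past 2-fold. Of 7 chemokine and chemoattractant receptor genes and of 9 growth factor and cytokine receptor genes tested, 0 were 2-fold different in either direction. Over all genes 3.8% were higher and 7.35% lower, so 0 among so few genes is near these shares. The medians of the receptor lists were -0.29 and -0.33. Cxcr4, which retains neutrophils in marrow, was at -0.30 (-0.598 to -0.004), and Il1r2, the decoy receptor of interleukin-1, at -0.41 (-0.73 to -0.08). Of 10 adhesion genes 1 was higher (Cd177) and 2 were lower (Itgb1 and Icam1), beside 3.8% and 7.35% of all genes, with a median of -0.36. Of 8 genes of the oxidative burst, 1 was higher (Cybb) and 1 lower (Sod2), beside the same shares. Immediate early and heat shock genes had a median of -0.26 over 12 genes in neutrophil-like barcodes, beside 1.61 in endothelial, 0.98 in Kupffer and 0.64 in B and T cell barcodes.

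Interferon-stimulated genes are induced through the factor complexes that bind the ISRE, an element in their promoters, and they led 1 of the 2 neutrophil-like clusters, which held 7 control and 21 Maf LSEC-KO barcodes. Promoters from 250 bases before to 50 bases after the gene start (RefSeq, GRCm38.p6) were searched on both strands for the ISRE core, which is GAAA, 2 bases of any kind and GAAA. It was present for 13 of 24 matched list genes (54.2%) and for 3.99% of all 27025 genes with a promoter in the table. The promoters of the 2-fold higher gene with the most UMIs (Rsad2), of the ubiquitin-like modifier Isg15 and of the leading gene of the cluster (Ifit3) are shown to place this element beside the counts, with each match to the core or its reverse complement in capitals. They lie on chr12:26456403-26456702 (minus strand), chr4:156200769-156201068 (minus strand) and chr19:34583279-34583578 (plus strand).
Rsad2: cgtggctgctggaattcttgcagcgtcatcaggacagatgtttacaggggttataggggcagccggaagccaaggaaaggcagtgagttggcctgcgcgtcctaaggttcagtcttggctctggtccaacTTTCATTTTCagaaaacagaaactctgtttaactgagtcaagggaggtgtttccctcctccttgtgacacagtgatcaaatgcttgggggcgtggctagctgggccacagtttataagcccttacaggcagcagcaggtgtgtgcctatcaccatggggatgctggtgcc
Isg15: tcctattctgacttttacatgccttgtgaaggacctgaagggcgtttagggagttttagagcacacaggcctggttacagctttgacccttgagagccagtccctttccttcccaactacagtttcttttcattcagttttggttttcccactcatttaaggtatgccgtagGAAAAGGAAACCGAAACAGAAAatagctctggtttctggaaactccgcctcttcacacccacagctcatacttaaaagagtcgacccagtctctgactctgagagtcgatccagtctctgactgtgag
Ifit3: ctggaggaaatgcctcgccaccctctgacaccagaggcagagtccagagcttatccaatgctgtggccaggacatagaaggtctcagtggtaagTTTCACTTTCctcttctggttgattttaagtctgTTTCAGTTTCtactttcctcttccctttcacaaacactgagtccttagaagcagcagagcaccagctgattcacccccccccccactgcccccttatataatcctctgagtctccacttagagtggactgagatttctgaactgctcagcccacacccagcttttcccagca
Rsad2 and Ifit3 hold the core in the reverse direction, Ifit3 at separate places, and Isg15 holds overlapping copies in 1 run. Cmpk2, Ifit2 and Xaf1, also at least 2-fold higher in neutrophil-like barcodes, held no match, nor did Ifi47, which was 2-fold lower. Isg15 and Ifit3 were higher by less than 2-fold, so the promoters shown do not stand for the called genes. A match of letters is not a binding site.

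Rsad2, the antiviral enzyme viperin, had 59 UMIs in 16 control and 384 UMIs in 39 Maf LSEC-KO neutrophil-like barcodes, a log2 ratio of 1.49 (1.09 to 1.91). Isg15 was at 1240 and 1636 CPM, a ratio of 0.40 (0.15 to 0.65). Ifit3, an RNA-binding protein with the near-identical copy Ifit3b, was at 333 and 536 CPM, a ratio of 0.69 (0.22 to 1.18). Oas2, which was not on the list, had 3 UMIs in 3 control and 38 UMIs in 25 Maf LSEC-KO barcodes, a ratio of 2.45 (0.79 to 4.79). Of 24 interferon-stimulated genes tested, 5 were at least 2-fold higher (Rsad2, Cmpk2, Ifit2, Zbp1 and Xaf1), 1 was 2-fold lower (Ifi47), beside 3.8% and 7.35% of all genes, and 20 had a ratio above 0. The list's median was 0.54 against -0.15 for all genes. For the same genes the median was 0.67 in endothelial, 0.79 in B and T cell and -0.07 in Kupffer barcodes. In these groups 5, 7 and 0 genes were at least 2-fold higher and 1, 0 and 0 lower. In B and T cell barcodes only 22 of the 24 genes had UMIs in both libraries. No share over all genes was computed in these groups, so their counts are a description.

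Within each library the interferon-stimulated sum had a wide range over barcodes. It ran from 1040 to 73682 CPM with a median of 5708 in control and from 1586 to 70677 CPM with a median of 7590 in Maf LSEC-KO. At 1500 UMIs, at least 5 such UMIs were kept by 70.0% of control (53.5 to 83.4) and 85.7% of Maf LSEC-KO barcodes (75.9 to 92.7). These intervals overlap. A UMI of Rsad2 or Isg15 was also found in 32.2% and 30.5% of control and 34.7% and 49.3% of Maf LSEC-KO B and T cell barcodes, which were deeper, with medians of 9630 and 7616 UMIs. After thinning to 1500 UMIs, a Rsad2 UMI was kept by 25% of control and 36.4% of Maf LSEC-KO neutrophil-like barcodes, beside 3.39% and 12% of B and T cell barcodes. When classes were set by marker sums in place of clusters, the ratio of Ifit2 was 0.06 and that of Xaf1 0.66.

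C/EBP factors drive many genes of granulocyte maturation. The C/EBP-type core TTNNGNAA was present for 15 of 24 neutrophil and secondary granule genes (62.5%) for 66.7% of the matched interferon-stimulated genes and for 44.1% of all genes. The promoter of Ngp, the granule gene with the most UMIs, lies on chr9:110419558-110419857 (plus strand) and is shown with its matches in capitals.
Ngp: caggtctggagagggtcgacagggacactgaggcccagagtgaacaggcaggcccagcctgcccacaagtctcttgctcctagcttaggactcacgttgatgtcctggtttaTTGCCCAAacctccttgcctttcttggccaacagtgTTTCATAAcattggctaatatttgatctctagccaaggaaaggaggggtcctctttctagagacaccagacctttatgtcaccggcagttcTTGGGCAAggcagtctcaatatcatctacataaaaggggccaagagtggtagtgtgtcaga

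Endothelial RNA was present at low level in neutrophil-like barcodes. The 12 endothelial genes summed to 1565 CPM in control and 900 CPM in Maf LSEC-KO, beside 28183 and 14262 CPM in endothelial barcodes. Of the genes past 2-fold in neutrophil-like barcodes, 17 of 59 higher and 40 of 114 lower genes had a higher level in endothelial barcodes. They included Dnase1l3, with 36 UMIs in control and 2 in Maf LSEC-KO, and Stab2, F8, Fcgr2b and Maf, which were lower in endothelial barcodes too. Ly6a, an antigen of endothelial cells and progenitors, was higher in both, with 8 and 90 UMIs in neutrophil-like barcodes and 1187 and 3736 CPM in endothelial barcodes. The higher ones also included Trappc5, Fcor and H2-Q6. H2-Q6 had 3 and 42 UMIs in neutrophil-like barcodes, a log2 ratio of 2.59 (0.94 to 4.92). Such genes are not read as genes of neutrophils. Summed levels of other lineages were low, with 12 and 67 UMIs of 10 B cell genes, 2 and 4 UMIs of 10 T cell genes, 1 and 8 UMIs of 6 erythroid genes and 89 and 221 UMIs of 14 macrophage genes. Markers of eosinophils summed to 3 and 4 UMIs.

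Monocyte-like barcodes, 9 in control and 20 in Maf LSEC-KO, were few. Lyz2, the lysozyme of myeloid cells, was at 21780 and 19169 CPM, a log2 ratio of -0.18 (-0.28 to -0.09). Ccr2, one of the rule genes, was at 676 and 586 CPM. S100a8 and S100a9 had at most 2 and 4 UMIs per library, so this class did not carry neutrophil RNA. Ly6c2 was at 2505 and 1173 CPM, but 1 control barcode held 80 of the 163 control UMIs. More Ly6c2 than Ace UMIs, as in classical cells, were found in 5 of 9 control and 12 of 20 Maf LSEC-KO barcodes, and more Ace than Ly6c2, as in patrolling cells, in 3 and 7. Some of these barcodes were placed by only 1 or 2 UMIs, and Ace had at most 11 and 8 UMIs per barcode. At least 5 H2-Ab1 UMIs, of an MHC class II gene, were held by 2 control and 6 Maf LSEC-KO barcodes. Both patterns were thus found in each library, but single barcodes are not assigned to a state.

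Other monocyte differences rested on single barcodes. In control, 1 barcode held 98.5% of the 260 Cxcl10 UMIs, 89.8% of the 256 Isg15 UMIs and 80.9% of the 481 Ccl5 UMIs. In Maf LSEC-KO, 1 barcode held 92.6% of the 94 Ccl4 UMIs and 90.7% of the 151 Cxcl2 UMIs. Il1rn was an exception in spread, with 2 UMIs in 2 control and 58 UMIs in 8 Maf LSEC-KO barcodes, a log2 ratio of 3.94 (2.02 to 7.02), opposite in sign to its ratio of -1.22 in neutrophil-like barcodes. C3, the central complement component, had 25 UMIs in 6 control and 114 UMIs in 16 Maf LSEC-KO barcodes, a ratio of 1.27 (0.64 to 1.96). Cxcl9, an attractant of T cells, had 52 UMIs in 2 and 316 UMIs in 9 barcodes, a ratio of 1.69 (1.26 to 2.14), with 40 of the control UMIs in 1 barcode and 155 and 128 of the Maf LSEC-KO UMIs in 2 barcodes. The stellate cell gene Dcn, which led this cluster, had 213 UMIs in 2 Maf LSEC-KO barcodes and 0 in control.

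Dendritic cell-like barcodes held the rule gene Ccr2 in 6 of 6 control and 22 of 24 Maf LSEC-KO barcodes. All of them held H2-Ab1, an MHC class II chain, with 473 UMIs in control and 2911 in Maf LSEC-KO. At the unlike depths of this class these were 8377 and 11504 CPM. Xcr1, a chemokine receptor of cross-presenting dendritic cells, was found in 2 control and 4 Maf LSEC-KO barcodes, and Siglech, a marker of plasmacytoid cells, in 1 and 3, with 1 barcode holding 39 of 39 and 46 of 54 UMIs. C1qa, a complement gene of macrophages, had 1 UMI in control and 251 UMIs in 8 Maf LSEC-KO barcodes, and the highest barcode held 124 of them. These barcodes are therefore a mixture of cell types, and the control group of 6 is small. Klrd1, a lectin receptor of NK cells, had 2 UMIs in 1 control and 88 UMIs in 15 Maf LSEC-KO dendritic cell-like barcodes, a log2 ratio of 3.30 (1.40 to 6.36).

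**Figure D5:**
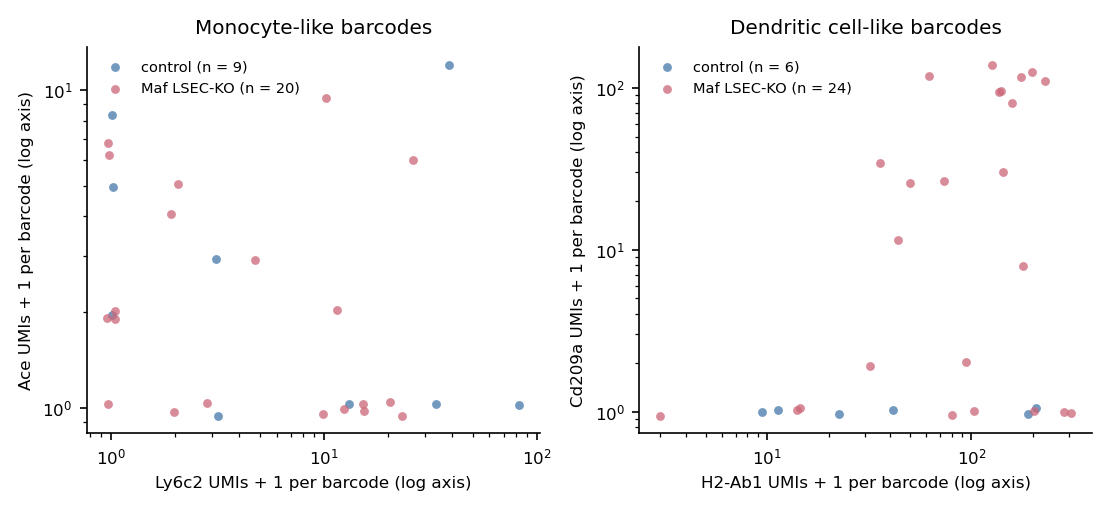
UMIs plus 1 per barcode on log axes, slightly shifted at random to separate points, for Ly6c2 (horizontal axis) against Ace (vertical axis) in monocyte-like barcodes and for H2-Ab1 against Cd209a in dendritic cell-like barcodes, in control and Maf LSEC-KO. Barcodes with more Ly6c2 than Ace and with more Ace than Ly6c2 occur in both libraries. Ace had at most 11 UMIs per barcode in control and 8 in Maf LSEC-KO. Cd209a was found in 16 of 24 Maf LSEC-KO and in 0 of 6 control dendritic cell-like barcodes.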

How the data were processed

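3′ scRNA-seq was measured in 1 control and 1 Maf LSEC-KO library. The authors deposited raw UMI counts per gene and barcode for 32285 genes, aligned to mm10 and counted with Cell Ranger 6.0.2 (Seurat 5.0.1 is also in the submitters' processing notes), for barcodes with at least 500 UMIs. Members and gene lists were chosen with earlier results of these data known. Members were clustered in scanpy 1.11.5 (log-normalised UMIs, 1000 variable genes, 15 components, 15 neighbours, Leiden resolution 0.5). A cluster took a name ending in -like when at least 3 markers of a list, and more than of any other list, were among its 50 leading genes (pseudocount 50 CPM).

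UMIs were summed per class and library. CPM left out 13 mitochondrial and 90 ribosomal protein genes. Genes with at least 100 CPM in either library were compared, and a ratio of 2-fold was called. The authors' subtraction of mean counts of empty droplets was not repeated. Exact Poisson and Clopper-Pearson 95% intervals (scipy 1.17.1) cover counting error only, and 0 UMIs were given a limit of 3 counts. Shares of cells were also taken after thinning to 1500 UMIs. B and T cell barcodes were chosen with at least 3 UMIs of their markers. The ratios and the grouping were checked on simulated data. Genes named were the listed genes, the 10 highest and 10 lowest ratios in neutrophil-like barcodes, the leading genes of members, and Maf, and others were named after their values were seen. Mx1, Mx2 and Clec7a were not analysed here. Doublets were kept, since Scrublet marked 1 barcode per library, and the highest scores were left out in an alternative. TMM came from edgeR 4.0.16 in R 4.3.3. Gene positions are from GENCODE M21.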

Additional observations from a re-analysis of the deposited data

Results flagged for a closer look

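Barcodes below the minima of 1500 UMIs and 750 genes were used in no comparison, and some passed the other conditions of the marker rule. In Maf LSEC-KO these were 11 of 1668 (0.659%, 0.3297 to 1.18) and in control 3 of 703 (0.427%, 0.0881 to 1.24), so the value was flagged because it was above that of the control library, although the intervals overlap. More UMIs of Csf3r and Retnlg than of Ccr2 were found in 9 of the 11 and in 2 of the 3. With minima of 500 UMIs and 250 genes the members would number 160 in Maf LSEC-KO and 75 in control.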

How the results depend on the processing

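No paired analysis was possible because each condition has 1 library and no test was made. Members made up 1.09% of control and 2.12% of Maf LSEC-KO barcodes without members that held 10 endothelial UMIs, 18.3% and 16.9% of barcodes with a Ptprc UMI, and in Maf LSEC-KO 2.29% with minima of 500 UMIs and 250 genes and 2.16% with 0 Kupffer UMIs. Neutrophil-like members were 72.2% and 64.3% of members without those that held 10 endothelial UMIs. Monocyte-like members were 43.1% and 45.6% when classes were set by marker sums, which place every member in 1 of 2 classes, and 42.7% and 43.8% when the lower minima were used as well. At resolution 0.3 no cluster was named monocyte-like or dendritic cell-like, so no share could be given.

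Over all members, the 63 genes at least 2-fold higher became 37 with CPM over all genes, 136 after thinning, 152 at a floor of 50 CPM and 32 at 200 CPM, and the 91 lower genes became 55 without members that held 10 endothelial UMIs, 160 without the highest Scrublet scores, 153 after thinning, and 145 and 54 at the 2 floors. In neutrophil-like barcodes, the 59 higher genes became 100 with TMM, 166 after thinning, 120 with classes by marker sums, and 173 and 20 at floors of 50 and 200 CPM, and the 114 lower genes became 69, 216, 290 and 41 with TMM, thinning and these floors. Low counts make more ratios pass 2-fold by construction at the lower floor and after thinning.

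Of 61 named ratios, 47 were past 2-fold. Leaving out the 10% of barcodes with most UMIs, an alternative chosen after seeing the data, kept 35 of the 42 that could be computed, and Cybb reversed to -1.01. Every other alternative reversed no called ratio. Ratios with at most 3 counts in both libraries were not computed. The 9 control monocyte-like, 6 dendritic cell-like and 3 NK cell-like barcodes limit what can be said of these classes.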

Other observations

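The 3 control and 5 Maf LSEC-KO NK cell-like members had passed the rule through Ccr2, which each of them held, and had 0 UMIs of Csf3r, Retnlg, Clec4e, S100a8 and S100a9. Gzma, a granzyme of cytotoxic cells, had 108 and 270 UMIs in them, the cytotoxic granule gene Nkg7 had 79 and 117, and the chemokine Ccl5 had 250 and 348. The NK cell receptor Ncr1 was found in 3 of 3 and 4 of 5. Cd3d, a chain of the T cell receptor complex, was found in 1 barcode of each library, with 9 and 18 UMIs, so both libraries held 1 barcode with a T cell marker in this class.

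Some genes had most of their UMIs in a single barcode of a class. Spp1 (osteopontin) had 334 of its 338 UMIs in dendritic cell-like barcodes of Maf LSEC-KO in 1 barcode. Igkc, the kappa light chain of B cells, had 66 of 88 UMIs in 1 barcode there.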
